A study of Homo sapiens with 2 samples.

Results

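The HSP70 and HSP90 chaperones described here are 9 genes of these families together with HSF1, their heat shock transcription factor. They were taken as the table rows whose Entrez identifier maps to HSPA1A, HSPA1B, HSPA4, HSPA5, HSPA8, HSPA9, HSP90AA1, HSP90AB1, TRAP1 or HSF1. All 10 were found, among 40392 Entrez genes in each of 2 RNA sequencing libraries. Both libraries came from KYSE30, an established line of esophageal squamous cell carcinoma. The mock cells were stably transfected with the pIRES2-EGFP vector. The RHCG cells were stably transfected with an expression vector for human RHCG, an ammonia transporter of the Rhesus glycoprotein family. The labels do not say whether the transfectants are clones or pools, nor whether the vectors share a backbone or promoter. Each group has 1 library and thus no replicate spread, and every difference below is between these 2 libraries, with no p-value.

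HSP70 proteins bind exposed hydrophobic stretches of unfolded polypeptides in cycles of ATP hydrolysis, helped by J-domain proteins that deliver clients and by nucleotide exchange factors that release them. HSP90 proteins are dimers that act later, on nearly folded clients such as kinases and steroid receptors. The cytosol, the endoplasmic reticulum and the mitochondrion each have their own members, and HSF1 drives the cytosolic inducible ones when unfolded proteins draw chaperones away from it. Carcinoma cells often express the cytosolic members at a high level without added stress.

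Values are RPKM (reads per kilobase of gene, scaled to depth), so they can be set side by side between genes. The deposited scaling corresponds to about 18900000 reads for mock cells and 22100000 for RHCG cells. Fold changes are log2((RHCG + 1)/(mock + 1)) in RPKM. A gene is called lower at −1 or less and higher at 1 or more, a 2-fold difference after the added 1 RPKM. Tested in this way were the 12857 genes listed above 0 in at least 1 library, and their median log2 ratio was −0.01 with an SD of 0.54. RHCG itself was listed at 0 in mock cells and reached 413 RPKM in RHCG cells, as the labels place it. Of 14 squamous epithelial markers 12 were tested, among them KRT13 (407 and 164 RPKM in the mock and RHCG libraries), SFN (254 and 180) and TP63 (26.2 and 14.4), while KRT5 and PKP1 were listed at 0 in both. Of these 12, KRT6A, KRT13 and S100A2 were called lower and 0 higher. Over all tested genes, 3.30% were called lower and 2.74% higher. The squamous list had 6 genes above 0 and 6 below, with a median of −0.06. Among those above were DSG3 (7.01 and 12.6 RPKM), LY6D (14.9 and 20.9) and KRT14 (3.31 and 4.21). EPCAM (66.5 and 120 RPKM) was also above 0 and is in the list, though it is not particular to squamous epithelium. The summed level of the list was 1078 RPKM in mock cells and 683 in RHCG cells, KRT13 being the largest part in mock cells. Most markers of other cells were listed at 0 in both libraries: 0 of 8 erythroid, 1 of 11 leukocyte (CD68, 15.4 and 8.89 RPKM), 1 of 10 endothelial (EGFL7, 16.7 and 17.2 RPKM) and 3 of 10 fibroblast markers (FBLN1, COL1A1 and COL3A1, summed levels of 8.97 and 6.90 RPKM) were tested. Of 10 simple columnar markers 3 were tested, the keratins KRT8, KRT18 and KRT19, with a summed level of 5773 RPKM in mock cells and 4729 in RHCG cells. KRT19 (1766 and 855 RPKM, log2 ratio −1.05) was also called lower, while KRT8 and KRT18 were not called. Whether the squamous markers that were called lower play a part in the chaperone values was not tested.

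The 10 genes split in part by compartment. The cytosolic HSP70 genes HSPA1A, HSPA1B and HSPA8 and the inducible cytosolic HSP90 gene HSP90AA1 were 3.70-fold to 4.73-fold lower in the RHCG library. The cytosolic genes HSPA4 and HSP90AB1 were only 1.21-fold and 1.58-fold lower in that library and were not called. The reticulum HSP70 gene HSPA5 was 1.88-fold higher there, which is short of the call. HSP90B1, the reticulum HSP90 gene and not one of the 10, was 1.54-fold lower. The mitochondrial genes HSPA9 and TRAP1 were 1.49-fold and 1.32-fold higher, and HSF1 was 1.06-fold higher. From the highest RPKM down, the order in mock cells was HSPA1A, HSPA1B, HSP90AB1, HSPA8, HSP90AA1, HSPA5, TRAP1, HSF1, HSPA9 and HSPA4. In RHCG cells it was HSPA5, HSP90AB1, TRAP1, HSPA1A, HSPA1B, HSPA8, HSPA9, HSP90AA1, HSF1 and HSPA4. With no replicates it is unknown which neighbours in these orders differ beyond their spread. In all, 4 of the 10 were called lower and 0 higher, where 3.30% of all tested genes were called lower and 2.74% higher. All 10 were chosen with earlier results of these data known. HSPA1A and HSPA1B are both among the 4, although they share most of their sequence and are not separate measurements. The 10 genes are abundant, so the background was also counted over the 1648 genes that averaged 50 RPKM or more, a threshold chosen after the data were seen. Of those, 4.98% were called lower and 3.82% higher. In RNA from a whole culture, less RNA in every cell and fewer cells with much of it cannot be told apart.

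**Figure D1:**
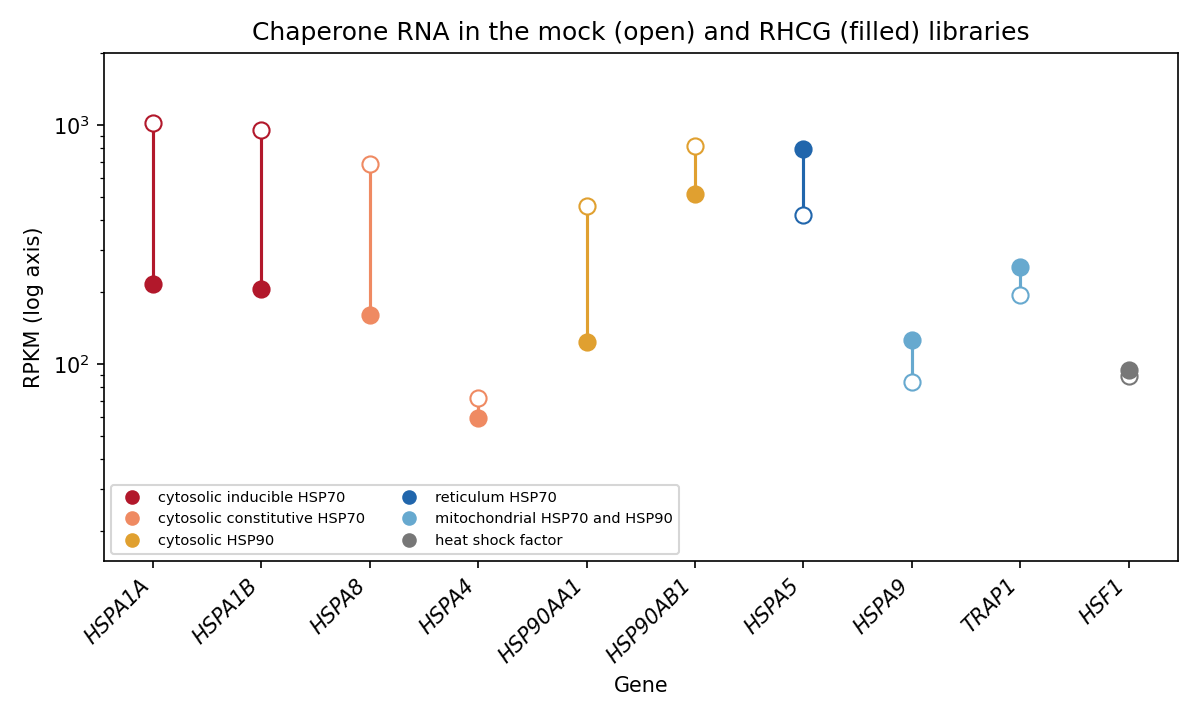
RPKM (log axis) of the 10 genes in the mock library (open circles) and in the RHCG library (filled circles), coloured by compartment; each circle is 1 library. The filled circles of HSPA1A, HSPA1B, HSPA8 and HSP90AA1 lie between 123 and 215 RPKM, below open circles at 457 to 1018 RPKM, and HSPA5 has its filled circle above the open one.

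Promoter sequences are shown for cytosolic genes because HSF1 is known to drive the inducible ones. Binding of HSF1 was not measured here. HSF1 trimers bind heat shock elements, alternating GAA and TTC units that are each separated by 2 bases. RefSeq promoter windows of 300 bases (250 before to 50 after the start site, build GRCh38.p14, while the processing notes of the deposited tables name hg19) were found for 9 of the 10 genes. HSF1 had no entry. A run of 3 units, GAANNTTCNNGAA or TTCNNGAANNTTC (N is any base, both strands searched), was present in HSPA8, HSP90AA1 and HSP90AB1. That is 3 of 9 genes, where 0.608% of 27305 genes with a window hold one in any window. A shorter run of 2 units, GAANNTTC or TTCNNGAA, was present in 6 of 9 genes and in 16.2% of all genes with a window. The 6 are the 3 above with HSPA1A, HSPA1B and HSPA9, and HSPA9 was higher in RHCG cells. Every 3-unit run also contains the 2-unit run. The 250 bases before the start site are shown for the 5 cytosolic genes that were lower in the RHCG library by 1.5-fold or more. The remaining cytosolic gene, HSPA4, has neither run in its window. Capitals mark the 3-unit runs or, in HSPA1A and HSPA1B, which have none, the 2-unit run.
HSPA1A, chr6:31815293-31815542, plus strand: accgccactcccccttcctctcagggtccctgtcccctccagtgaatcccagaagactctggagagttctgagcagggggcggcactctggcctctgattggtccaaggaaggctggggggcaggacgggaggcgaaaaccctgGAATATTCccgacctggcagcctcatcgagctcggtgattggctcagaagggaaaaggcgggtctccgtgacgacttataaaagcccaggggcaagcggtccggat
HSPA1B, chr6:31827488-31827737, plus strand: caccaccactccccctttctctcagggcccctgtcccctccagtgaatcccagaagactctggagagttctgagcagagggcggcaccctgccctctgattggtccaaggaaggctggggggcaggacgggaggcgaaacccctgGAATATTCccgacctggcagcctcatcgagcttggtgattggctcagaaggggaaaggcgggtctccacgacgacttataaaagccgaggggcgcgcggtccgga
HSPA8, chr11:123062137-123062386, minus strand: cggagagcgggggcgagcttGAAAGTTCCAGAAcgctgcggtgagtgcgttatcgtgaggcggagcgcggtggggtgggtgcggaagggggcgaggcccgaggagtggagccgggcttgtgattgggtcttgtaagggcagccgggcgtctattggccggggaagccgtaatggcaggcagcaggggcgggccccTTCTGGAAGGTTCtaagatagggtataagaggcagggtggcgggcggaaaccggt
HSP90AA1, chr14:102087045-102087294, minus strand: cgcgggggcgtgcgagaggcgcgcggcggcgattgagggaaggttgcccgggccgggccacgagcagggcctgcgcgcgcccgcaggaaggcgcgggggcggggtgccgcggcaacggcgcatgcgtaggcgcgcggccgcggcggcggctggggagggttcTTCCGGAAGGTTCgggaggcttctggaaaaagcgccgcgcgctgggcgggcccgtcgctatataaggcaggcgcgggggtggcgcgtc
HSP90AB1, chr6:44247693-44247942, plus strand: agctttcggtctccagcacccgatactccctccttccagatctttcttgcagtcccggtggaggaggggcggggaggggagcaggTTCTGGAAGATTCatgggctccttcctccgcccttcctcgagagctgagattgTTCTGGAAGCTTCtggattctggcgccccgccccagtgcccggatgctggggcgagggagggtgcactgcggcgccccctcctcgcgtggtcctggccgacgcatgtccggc
HSPA8 has 2 of the 3-unit runs, which begin 230 and 55 bases before its start site. HSP90AA1 has 1, at 88 bases before the start, in 1 of its 2 windows. HSP90AB1 has 2, at 165 and 112 bases before the start, in 1 of its 3 windows. HSPA1A and HSPA1B have 1 run of 2 units each, at 106 and 105 bases before the start. The 300-base windows of HSPA1A and HSPA1B are identical at 277 positions, with 22 mismatches and 2 gap bases (92.0% identity). A match is only a match of letters, and other arrangements of the units were not searched.

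HSPA1A and HSPA1B encode the stress-inducible cytosolic HSP70, which is low in many resting tissues. HSPA1A (Entrez gene 3303, chromosome 6) was at 1018 RPKM in mock cells and 215 in RHCG cells. It held rank 16 among 11201 protein-coding genes listed in the mock library and rank 184 among 10968 in the RHCG library. HSPA1B (Entrez gene 3304, next to HSPA1A) was at 950 and 206 RPKM. Both genes were thus among the most abundant in the mock cells, for which the labels name no heat treatment, and far lower in the RHCG cells. Their log2 ratios were −2.24 and −2.20, or 4.73-fold and 4.60-fold lower. Counted from the lowest log2 ratio of all tested genes, HSPA1A had rank 19 and HSPA1B rank 21.

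The pair cannot be read as 2 measurements. Over 1926 coding bases each, HSPA1A and HSPA1B differ at 4 (99.8% identity). Of all stretches of 100 bases in the HSPA1A transcript, 69.9% occur exactly in another gene's transcript, and in HSPA1B 72.7% do. The sources used here do not say how the authors assigned reads that fit both genes. The ratio of HSPA1A to HSPA1B was 1.07 in mock cells and 1.04 in RHCG cells, and their summed level was 1968 and 422 RPKM. The other chaperones are told apart better: HSPA8, HSPA4, TRAP1 and HSF1 share no stretch of 100 bases with another gene, HSPA9 shares 0.13%, and HSP90AA1, HSP90AB1 and HSPA5 share 1.59% to 2.28%, the HSP90 pair mostly with pseudogenes. Over stretches of 50 bases HSPA8 shares 15.4%, HSP90AA1 17.5%, HSP90AB1 18.8% and HSPA5 9.54%. Of 35 pseudogene rows of the HSPA and HSP90 families, 34 were listed at 0 in both libraries. The other 1 was HSP90B2P, a copy of the reticulum HSP90 gene, at 107 and 70.7 RPKM.

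HSPA8 encodes the constitutive cytosolic HSP70, which serves folding, vesicle uncoating and selective autophagy. HSPA8 (Entrez gene 3312, chromosome 11) was at 685 RPKM in mock cells and 160 in RHCG cells. It fell from rank 43 to rank 301 among protein-coding genes. Its log2 ratio of −2.09 (4.27-fold lower, rank 27 from the lowest) was close to that of the inducible pair. The ratio of HSPA1A to HSPA8 was 1.49 in mock cells and 1.34 in RHCG cells. HSPA1A and HSPA8 share 73.3% of their aligned coding bases and no stretch of 100. The small nucleolar RNAs SNORD14C, SNORD14D and SNORD14E lie within HSPA8 and were listed at 0 in both libraries.

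HSPA4 is a larger cytosolic relative of the HSP110 type that works as a nucleotide exchange factor for HSP70. HSPA4 (Entrez gene 3308, chromosome 5) was at 71.8 RPKM in mock cells and 59.4 in RHCG cells, a log2 ratio of −0.27. It was the lowest of the 10 genes in both libraries. HSPA8 was thus 9.54 times as abundant as HSPA4 per length in the mock library and 2.70 times in the RHCG library. The median log2 ratio of 51 neighbouring genes on chromosome 5, HSPA4 among them, was −0.43. With that shift removed the log2 ratio of HSPA4 was 0.16.

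HSP90AA1 and HSP90AB1 encode the inducible and the constitutive cytosolic HSP90. HSP90AA1 (Entrez gene 3320, chromosome 14) was at 457 RPKM in mock cells and 123 in RHCG cells. HSP90AB1 (Entrez gene 3326, chromosome 6) was at 815 and 516 RPKM. Both were lower in the RHCG library, HSP90AA1 by more. The log2 ratio was −1.88 for HSP90AA1 (3.70-fold lower, rank 40 from the lowest) and −0.66 for HSP90AB1 (1.58-fold lower, rank 1191), so that only HSP90AA1 was called. The RPKM ratio of HSP90AA1 to HSP90AB1 was 0.561 in mock cells and 0.239 in RHCG cells. Of their aligned coding bases 64.4% were identical, with 390 gap bases, many from the longer HSP90AA1 isoform, counted as different. Both have a 3-unit heat shock element in the sequences above, and HSP90AB1 has 1 more than HSP90AA1.

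HSPA5 (also called BiP or GRP78) is the HSP70 of the endoplasmic reticulum and a main target of the unfolded protein response, while HSP90B1 (GRP94) is the HSP90 of that compartment. Their promoter windows hold the reticulum stress element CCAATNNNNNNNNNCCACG, searched on both strands, which 0.0916% of genes with a window hold (25 of 27305). HSPA5 is the only gene among the 9 with an entry that holds it, and HSP90B1, which is not one of the 10, is shown beside it. Capitals mark the element.
HSPA5, chr9:125241344-125241593, minus strand: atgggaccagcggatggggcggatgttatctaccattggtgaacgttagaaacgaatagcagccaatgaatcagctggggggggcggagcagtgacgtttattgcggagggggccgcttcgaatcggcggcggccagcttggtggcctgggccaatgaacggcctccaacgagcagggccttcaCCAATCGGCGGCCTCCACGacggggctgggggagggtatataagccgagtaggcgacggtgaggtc
HSP90B1, chr12:103930160-103930409, plus strand: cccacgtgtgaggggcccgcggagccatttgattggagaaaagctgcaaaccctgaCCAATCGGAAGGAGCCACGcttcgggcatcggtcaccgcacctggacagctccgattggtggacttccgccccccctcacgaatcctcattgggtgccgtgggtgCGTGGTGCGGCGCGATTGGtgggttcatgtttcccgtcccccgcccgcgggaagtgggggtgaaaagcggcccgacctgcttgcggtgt
The element begins 66 bases before the start site of HSPA5, and 194 and 89 bases before that of HSP90B1. HSPA5 (Entrez gene 3309, chromosome 9) was at 422 RPKM in mock cells and 792 in RHCG cells. It had rank 82 among protein-coding genes in the mock library and rank 21 in the RHCG library, where it was the most abundant of the 10. Its log2 ratio was 0.91 (1.88-fold higher), rank 493 from the highest. HSP90B1 was at 228 and 148 RPKM, a log2 ratio of −0.62. The genes that share the element in these sequences thus had log2 ratios of opposite sign.

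HSPA9 (mortalin) is the HSP70 of the mitochondrial matrix, where it pulls imported proteins across the inner membrane, and TRAP1 is the mitochondrial HSP90. HSPA9 (Entrez gene 3313, chromosome 5) was at 84.4 RPKM in mock cells and 126 in RHCG cells. TRAP1 (Entrez gene 10131, chromosome 16) was at 194 and 255 RPKM. Both were higher in the RHCG library and neither was called, with log2 ratios of 0.57 and 0.40. With the median of the 51 genes around and including each removed, the log2 ratio was 0.98 for HSPA9 and 0.20 for TRAP1. Around HSPA9 that median was −0.41. The small nucleolar RNA SNORD63 lies within HSPA9 and was at 458 and 536 RPKM, and how reads of such embedded RNAs were counted is not given in the sources used here. DNASE1, which overlaps TRAP1, was at 3.89 and 5.37 RPKM.

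HSF1, the factor that binds heat shock elements, was at 89.0 RPKM in mock cells and 94.0 in RHCG cells. HSF1 (Entrez gene 3297) had a log2 ratio of 0.08, and its rank was 675 and 604. Its RNA thus differed little between the libraries. Of the other 9 genes, 4 were more than 3-fold apart, with HSPA1A and HSPA1B counted separately. HSF1 is mainly controlled through its protein, by trimer formation, phosphorylation and chaperone binding, and these files hold no protein measurement. The overlapping gene DGAT1 was at 15.4 and 11.0 RPKM.

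**Figure D2:**
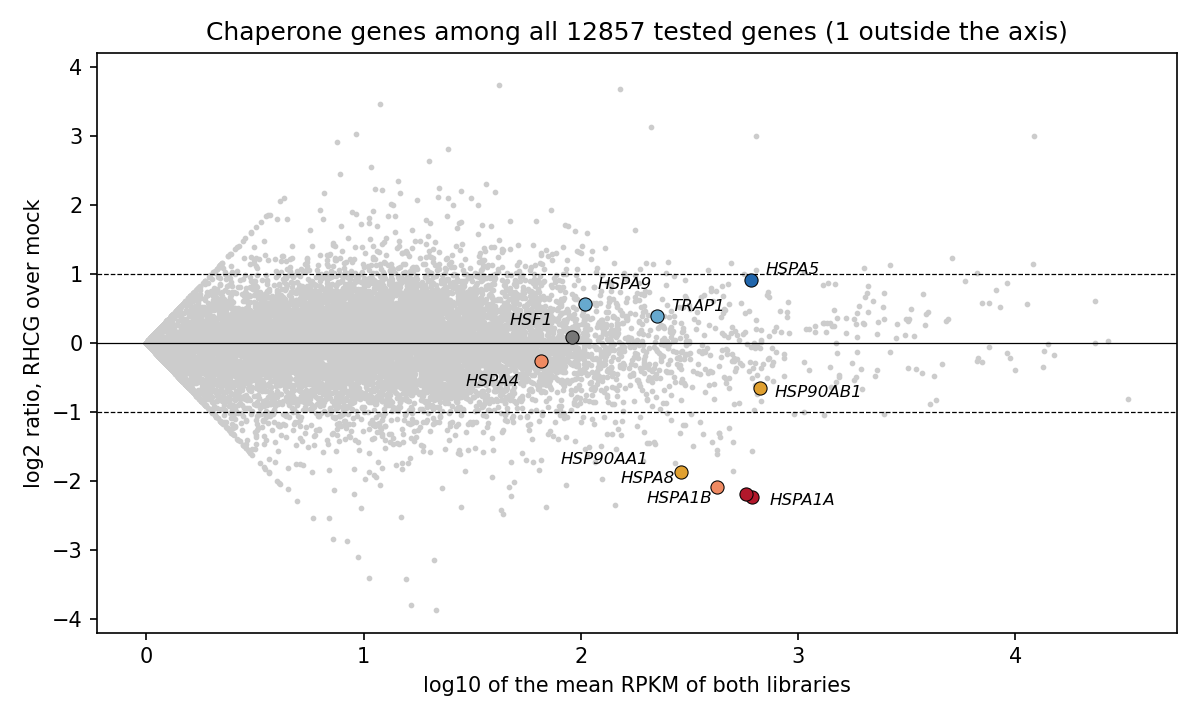
Log2 ratio of RHCG over mock against the log10 of the mean RPKM for the tested genes (grey points, 1 beyond the axis) with the 10 chaperone genes coloured by compartment as in the plot of levels; dashed lines mark 1 and −1. HSPA1A, HSPA1B, HSPA8 and HSP90AA1 lie at −2.24 to −1.88, and HSPA5 lies at 0.91, just under the upper line.

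Counting error is small at these levels. Approximate read numbers, from RPKM, GENCODE transcript length and the estimated depth, ran from 3609 reads (HSF1) to 47869 (HSPA1A) in the mock library. In the RHCG library they ran from 4442 (HSF1) to 68314 (HSPA5). The 95% exact counting interval of the plain log2 ratio was −2.27 to −2.21 for HSPA1A, −2.13 to −2.06 for HSPA8, −1.92 to −1.86 for HSP90AA1 and 0.89 to 0.93 for HSPA5. For HSF1, with the fewest reads, it was 0.02 to 0.14. These intervals cover counting error only and say nothing of the spread between cultures. They rest on the approximate reads, and how reads that fit both HSPA1A and HSPA1B were counted is not known.

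Set side by side, the compartments had median log2 ratios of −2.22 (inducible cytosolic HSP70), −1.18 (constitutive cytosolic HSP70, HSPA8 and HSPA4), −1.27 (cytosolic HSP90), 0.48 (mitochondrial) and 0.91 (reticulum, HSPA5 alone). The inducible cytosolic genes differed by −3.12 from the reticulum gene on the log2 scale and by −2.70 from the mitochondrial pair. HSPA5 does not stand for its whole compartment. The reticulum HSP90 gene HSP90B1, not one of the 10, was at −0.62, near the cytosolic HSP90AB1 at −0.66. A list of 15 other reticulum chaperones, HSP90B1 among them, had a median of −0.14, with 7 genes above 0 and 8 below. The cytosolic medians hide a split, since within each of the constitutive HSP70 and the HSP90 pairs 1 gene was called and the other was not. The median of all 10 was −0.46, with 4 genes above 0 and 6 below. With so few genes per compartment and 1 library per group, none of these differences has a test.

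The shares of the genes in the HSP70 RNA differed between the libraries. The summed level of the 6 HSP70 members was 3231 RPKM in mock cells and 1559 in RHCG cells. How reads that fit both HSPA1A and HSPA1B were counted is not known. If they were counted for each gene, this sum and the shares of the pair are too high, and the other shares too low. HSPA1A and HSPA1B made up 31.5% and 29.4% of that sum in the mock library and 13.8% and 13.2% in the RHCG library. HSPA8 went from 21.2% to 10.3%. HSPA5 went from 13.1% to 50.8%, and its ratio to HSPA8 was 0.616 in mock cells and 4.94 in RHCG cells. HSPA9 held 2.61% and 8.06%, and HSPA4 2.22% and 3.81%. Among these 6 members, the cytosolic genes thus supplied most of the RNA in the mock cells. In the RHCG cells the reticulum gene alone supplied the largest share.

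Among the 3 HSP90 members the constitutive gene led in both libraries. They summed to 1466 RPKM in mock cells and 894 in RHCG cells. The reticulum gene HSP90B1, at 228 RPKM in mock cells and 148 in RHCG cells, is not one of them. The shares below leave it out. HSP90AB1 was the largest in both, with 55.6% and 57.7%. HSP90AA1 went from 31.2% to 13.8%, and TRAP1 from 13.2% to 28.5%. TRAP1 RNA was therefore above HSP90AA1 RNA in the RHCG library, with a ratio of 2.07 against 0.424 in the mock library.

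**Figure D3:**
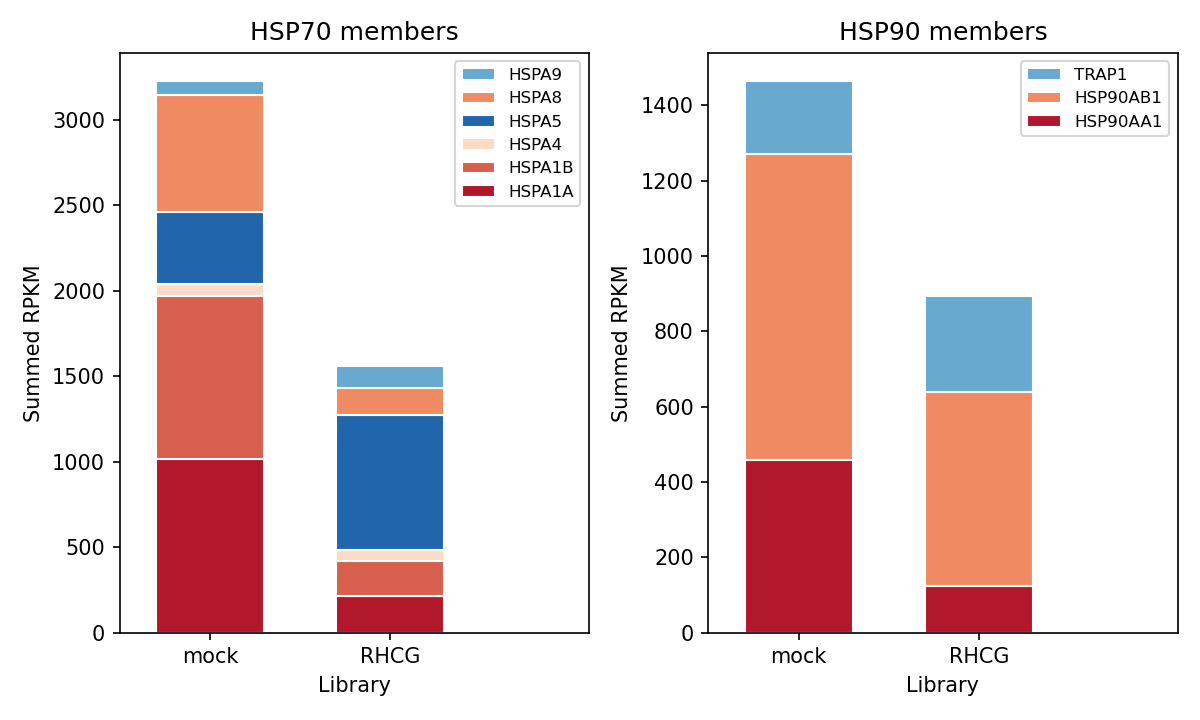
Summed RPKM of the HSP70 members (left) and the HSP90 members (right) in each library, stacked by gene from 0, in warm colours for cytosolic and blue for reticulum and mitochondrial genes. The HSP70 sum is 3231 in mock cells and 1559 in RHCG cells, and HSPA5 takes 13.1% and 50.8% of it. HSPA1A and HSPA1B are stacked as separate genes, though how reads that fit both were counted is not known.

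The counts for the lists that follow stand beside the same background, 3.30% of all tested genes lower and 2.74% higher. Of the other 11 genes of the HSP70 family 7 were tested. HSPA2 and HSPA1L were called lower and 0 higher, with a median of −0.11. HSPA2, best known from testis, was at 47.9 RPKM in mock cells and 8.36 in RHCG cells, a log2 ratio of −2.39. Its promoter window holds no heat shock element of 3 or 2 units, although its log2 ratio was below that of HSPA1A (−2.24). HSPA1L, also known from testis, was at 8.05 and 2.87 RPKM, a log2 ratio of −1.22. Neither shares a stretch of 100 bases with another gene, although 79.6% of HSPA2 and 80.9% of HSPA1L aligned coding bases match HSPA1A. HSPA1L is read away from HSPA1A, and their promoter windows have 241 of 300 bases in common on opposite strands, with the same 2-unit heat shock element. The reticulum members HYOU1 (84.0 and 167 RPKM, log2 ratio 0.99) and HSPA13 (9.76 and 18.4 RPKM, log2 ratio 0.85) were higher and not called, as was HSPA5. With GC and length trends removed, HYOU1 was at 1.07 and passed the call. HSPA7, HSPA12A, HSPA12B and HSPH1 were listed at 0 in both libraries. HSPA6 was listed at 0 in mock cells and was at 1.27 RPKM in RHCG cells.

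Other chaperones of the reticulum lay on both sides of 0, with 7 genes above and 8 below. All 15 were tested, 1 was called higher and 1 lower, and the median was −0.14. DNAJB9, a J-domain partner of HSPA5, was at 2.57 RPKM in mock cells and 6.63 in RHCG cells (log2 ratio 1.10). SDF2L1, which works with another such partner, was at 30.9 and 14.1 RPKM (log2 ratio −1.08). Neither call held when the median shift of 51 neighbouring genes was removed. The calcium-binding lectin chaperone CALR was at 911 and 624 RPKM, a log2 ratio of −0.55.

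Most co-chaperones of HSP70 were within 2-fold. Of 9 tested cytosolic J-domain genes, 1 was called lower and 1 higher, with a median of −0.02. DNAJA1, a farnesylated J-domain partner of HSPA8, was at 59.1 RPKM in mock cells and 19.4 in RHCG cells (log2 ratio −1.56). DNAJC2, a ribosome-bound J-domain protein, was at 10.7 and 24.1 RPKM (log2 ratio 1.10), a call lost with the neighbouring shift removed. Of 12 tested nucleotide exchange factors and regulators, which include the mitochondrial GRPEL1 and GRPEL2 and the reticulum SIL1, 0 were called in either direction and the median was −0.04. BAG6, which guides tail-anchored proteins, was at 136 and 119 RPKM, and GRPEL1, the exchange factor of HSPA9, was at 46.7 and 84.4 RPKM (log2 ratio 0.84).

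HSP90 co-chaperones were also within 2-fold. Of 20 tested, 0 were called in either direction, with a median of −0.19, 12 genes below 0 and 8 above. CDC37, which brings kinases to HSP90, was at 124 RPKM in mock cells and 98.8 in RHCG cells. STIP1, which links HSP70 to HSP90, was at 97.1 and 58.6 RPKM (log2 ratio −0.72). At a ratio of 1.5, 3 of the 20 were lower and 1 was higher. At that ratio 1481 of all 12857 tested genes were lower and 1447 higher.

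Of 14 tested mitochondrial chaperones and proteases, 0 were called in either direction. Their median was 0.21, with 11 genes above 0 and 3 below. HSPD1, the mitochondrial HSP60, was at 316 RPKM in mock cells and 363 in RHCG cells. The matrix protease LONP1 was at 73.5 and 115 RPKM (log2 ratio 0.64). HSPA9 at 0.57 and TRAP1 at 0.40 lay above the median of this list.

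Genes that HSF1 is known to drive were also counted without the 10, in a list chosen with earlier results of these data known. Of 19 tested, 3 were called lower and 0 higher, beside 3.30% lower and 2.74% higher over all tested genes, and the median was −0.48, with 15 genes below 0 and 4 above. The called genes were DNAJA1, the chaperonin subunit TCP1 (89.7 RPKM in mock cells and 42.9 in RHCG cells, log2 ratio −1.05) and the polyubiquitin gene UBB (1284 and 630 RPKM, log2 ratio −1.03). The call of UBB was lost with GC and length trends removed (−0.97). The J-domain gene DNAJB1 was at 184 and 99.3 RPKM (log2 ratio −0.88), and HSPD1 and HSPE1 were above 0. The small heat shock protein HSPB1 was at 122 and 70.6 RPKM (log2 ratio −0.79), and 8 of the other 9 small heat shock genes were listed at 0 in both libraries, while HSPB11 was not matched. Other heat shock factors and HSF1 regulators had 0 calls among 9 tested and a median of 0.04, with VCP at 142 and 88.6 RPKM. Over all 125 pathway genes other than the 10, 105 were tested, 3 were called higher and 6 lower, and the median was −0.05, near that of all genes. Some genes stand in more than 1 list.

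**Figure D4:**
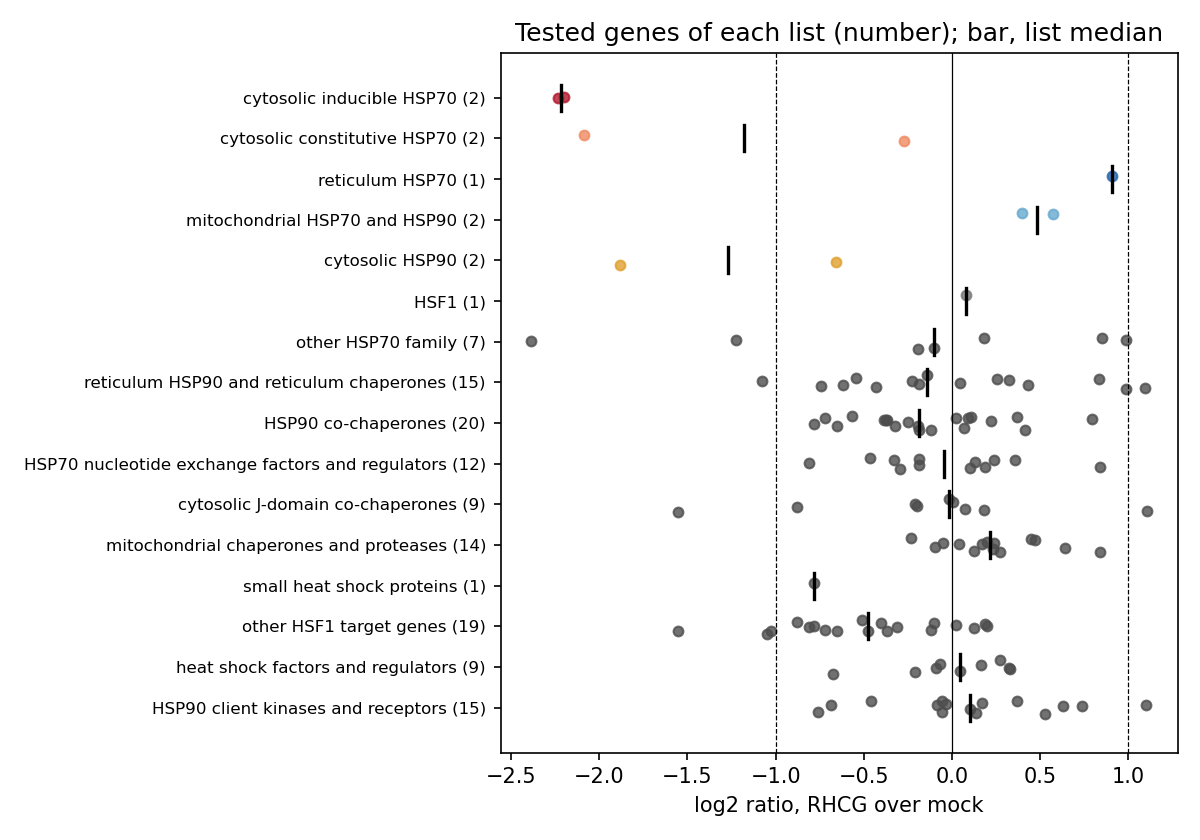
Log2 ratios of RHCG over mock for the tested genes of each list (points, 1 gene each, with the number tested in brackets); black bars are list medians and dashed lines mark 1 and −1. The list of other HSF1 targets has its median at −0.48, the mitochondrial list at 0.21 and the co-chaperone lists between −0.19 and −0.02.

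Genes next to the members gave a measure of regional shifts. The median log2 ratio was taken over 51 consecutive tested coding genes, the member itself among them. It was −0.16 around HSPA1A, 0.23 around HSPA8, −0.01 around HSP90AA1 and 0.06 around HSPA5. These members themselves were at −2.24, −2.09, −1.88 and 0.91. The genes around HSPA1A also include HSPA1B and HSPA1L. Beside HSPA1A and HSPA1B, LSM2 was at 37.7 RPKM in mock cells and 39.6 in RHCG cells, NEU1 was at 34.8 and 32.1, and EHMT2 was at 45.4 and 14.8 (log2 ratio −1.55). Beside HSPA5, RABEPK was at 26.3 and 52.8 RPKM (log2 ratio 0.98), while the other 5 of its nearest 6 genes lay between −0.23 and 0.26. WDR20, which overlaps HSP90AA1, was at 4.36 and 4.31 RPKM. The nearest 6 genes of HSP90AB1 had log2 ratios from −0.95 (MRPL14) to 0.12 (NFKBIE), and the median over 51 genes was −0.06.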

How the data were processed

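Total RNA from stable KYSE30 transfectants was depleted of ribosomal RNA and sequenced with an Ion Total RNA-Seq kit, 1 library per group, per the labels' protocols. The submitters' processing notes name hg19 and bedtools 2.25.0. How reads were aligned and counted, and how reads that fit several genes were handled, is not given in the sources used here. As the authors deposited them, the values were log2 values under a header of RPKM. They were unlogged, rows with a copy suffix were summed, and genes listed at 0 (1 RPKM or less, no reads or not counted) were set to 1 RPKM. Ratios used a pseudocount of 1 RPKM. The 10 genes and all lists were chosen with earlier results of these data known. Named beyond the 10 were up to 4 called genes of each list or the 2 most abundant, of which 1 is not reported here; others, such as HSP90B1, HYOU1, CALR, DNAJB1 and the neighbours, were chosen after their values were seen, as were the searches for shared stretches and overlapping genes. Shared stretches and identities used GENCODE transcripts, and lengths covered 97.8% of tested genes. The ratio rule was tested on simulated data. Tools were matplotlib 3.10.9, statsmodels 0.14.6, scipy 1.17.1, pandas 2.3.3, numpy 2.4.6 and Python 3.11.15. Alternatives changed the pseudocount, floor, filter, rows, scaling and ratio, or removed a GC and length trend or the shift of 51 neighbouring genes. That shift is the median log2 ratio of 51 consecutive tested coding genes, the gene itself included.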

Additional observations from a re-analysis of the deposited data

How the results depend on the processing

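HSPA1A, HSPA1B, HSPA8 and HSP90AA1 were called lower under the 5 alternatives that could move their values (pseudocount, both scalings, GC and length, neighbouring shift), and HSPA5 ranged from 0.85 to 0.91. HSPA4 was the 1 member whose sign changed (−0.36 to 0.16). Among all genes, 352 were called higher and 424 lower. A pseudocount of 0.1 RPKM gave 533 and 673, a ratio of 1.5 gave 1447 and 1481, and removal of the median shift over 51 neighbours gave 213 and 306. Setting genes listed at 0 to 0 RPKM before the filter gave 383 and 500. At a ratio of 1.5, HSP90AB1 (−0.66) joined the members called lower, and 1 member (HSPA5) was higher. At that ratio the other pathway genes had 11 higher and 17 lower. With the neighbouring shift removed instead, the other pathway genes had 0 higher. With GC and length trends removed the medians were −2.09 (inducible HSP70), −1.24 (constitutive HSP70), −1.30 (cytosolic HSP90) and 0.87 (reticulum). With the neighbouring shift removed they were −2.07, −1.08, −1.23 and 0.85, and 0.59 for the mitochondrial pair. Members with a heat shock element numbered 3 with 3 units and 6 with 2. Of 484 other values 410 stayed within their counting interval or, for counts, within 1.5 times, 74 did not, and 5 changed sign, among them HSPA4, HSPD1 (to −0.05) and the medians of the exchange factor (0.05) and J-domain lists (0.01). The causes were not tested. UBB (−1.05 to −0.97), SDF2L1 (−1.13 to −0.89), DNAJB9 (0.49 to 1.33), DNAJC2 (0.64 to 1.17) and MET (0.49 to 1.13) lost their call in some setting, and HSPB1 (−1.11 to −0.61) and HYOU1 (1.07 with GC and length trends removed) gained one. The filter on a mean of 1 RPKM removed no listed gene, so leaving it out changed no count. Median-of-ratios and trimmed mean scaling moved log2 ratios by about 0.01 at most. No paired analysis was possible because each group has 1 library, and for the same reason none could be left out. Counts could not be recovered: of small RNA values under 20 reads, 25.8% in mock cells and 38.2% in RHCG cells lay within 0.01 of a whole number.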

Other observations

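Proteins that need HSP90 to fold were measured at the RNA level. Of 15 tested client kinases and receptors, 1 was called higher and 0 lower, with a median of 0.10, 8 genes above 0 and 7 below. The receptor kinase MET was at 27.3 RPKM in mock cells and 59.7 in RHCG cells (log2 ratio 1.10, and 0.49 with the shift of its neighbours removed). The epidermal growth factor receptor EGFR was at 543 and 907 RPKM (log2 ratio 0.74). The cell cycle kinase CDK4 was at 142 and 87.8 RPKM (log2 ratio −0.69), and the glucocorticoid receptor NR3C1 was at 18.5 and 10.5 RPKM (log2 ratio −0.76).

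The same promoter letters were looked for in all tested genes, after the data were seen. Of 9827 tested genes with a window, 3.08% were called lower and 2.52% higher. Members aside, 47 tested genes had a 3-unit heat shock element, of which 2 were lower (4.26%) and 0 higher, and their median log2 ratio was 0.12. They were the J-domain gene DNAJA1 and SYNC, at 3.70 RPKM in mock cells and listed at 0 in RHCG cells. Of 1323 such genes with a 2-unit run, 52 were lower (3.93%). Of 14 genes other than HSPA5 with the reticulum stress element, 0 were lower and 1 was higher, and their median log2 ratio was −0.25. The higher gene was XBP1, a transcription factor of the unfolded protein response, at 55.7 and 140 RPKM (log2 ratio 1.32).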
